A study of Mus musculus with 13 samples.

Results

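The oncofetal hepatocyte markers are 9 genes: Afp, Gpc3, Cd24a, Igf2bp3, Lin28b, Zbtb20, Zhx2, Epcam and Sox9. They were chosen by name as markers or regulators of fetal liver and hepatocellular carcinoma, with earlier results of these data known, and the rule itself uses no measured value. Each gene was read from the probe set annotated to that symbol alone, and Zbtb20, which had more than 1 such probe set, from the one with the highest mean. All 9 had a probe set, out of 19938 genes measured on the arrays. Of these 9, Afp, Gpc3, Cd24a, Igf2bp3, Zbtb20 and Epcam lay above the filter on dim genes, a mean of 5.94 on the log2(intensity + 16) scale, and were tested among 14953 genes. Lin28b, Zhx2 and Sox9 lay below it and are described by their levels.

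Fetal hepatocytes make a set of proteins that the adult liver keeps at low levels and that often return in hepatocellular carcinoma. Afp, the fetal relative of serum albumin, is silenced in hepatocytes after birth, and in mice the repressors Zbtb20 and Zhx2 take part in that silencing. Gpc3 encodes glypican-3, a proteoglycan anchored in the cell membrane that modulates growth factor signalling. Cd24a and Epcam encode surface glycoproteins, and Igf2bp3 and Lin28b encode RNA-binding proteins of the fetal period that act on Igf2 mRNA and on let-7 precursors. Sox9 is a transcription factor of bile duct cells and of immature cells of the biliary lineage.

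RNA from frozen liver of 14-day-old mice was hybridised to 13 single-colour arrays, and diethylnitrosamine (DEN), a liver carcinogen that hepatocytes convert to a DNA-alkylating agent, had been injected into the peritoneum 24 h earlier at 20 mg/kg. Rb1, the retinoblastoma gene, was altered either by Cre recombinase under the albumin promoter, active in hepatocytes, which deletes a floxed exon, or by the N750F substitution, which affects the protein's binding cleft for LXCXE partners. The groups were N750F with DEN (5 arrays), knockout-labelled with DEN (2, floxed with Cre), heterozygous with DEN (2, a functional and a floxed allele with Cre), wild type with DEN (2, floxed without Cre) and untreated wild type (2, floxed without Cre, given saline). Arrays carry the numbers of the labels: 1 to 5 for N750F, 1 and 2 for the knockout-labelled and untreated groups, and 3 and 4 for the heterozygous and wild type DEN groups. For the N750F group the descriptions name the mutant only, with neither its other allele nor Cre, and the heterozygous arrays also carry the genotype tag LOH. The design text speaks of Cre-transgenic mice throughout, whereas the descriptions give wild type as without Cre, so a comparison with wild type may change Cre and Rb1 together. The saline-treated mice are called littermates of the treated ones, but the litter of each mouse is not given, so p-values reflect only how these particular arrays varied. Untreated mice of the other genotypes were not analysed here, and a difference between genotypes after DEN cannot be told apart from one that preceded it.

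The number of arrays limited the precision of every value. The arrays came in 2 batches of 9 and 4, as the raw array names in the labels show; all untreated and knockout-labelled arrays were in batch 1, and the other groups had arrays in both. Rb1 itself (probe set 10421526) had 8.23, 7.82, 8.43, 8.06 and 7.93 in N750F arrays 1 to 5, 7.92 and 6.57 in the knockout-labelled arrays, 7.92 and 7.62 in heterozygous arrays, 8.04 and 8.01 in wild type DEN arrays and 7.27 and 7.15 in untreated arrays. Whether this probe set lies in the deleted exon was not known here, so these levels do not check the labels. Knockout-labelled array 2 also held skeletal muscle transcripts: the mean of 11 muscle genes was 8.77 in it and at most 5.90 in any other array. By Xist and Y-linked genes, both wild type DEN mice, N750F mice 2 to 5 and untreated mouse 2 were female and the other 6 mice male, although heterozygous array 4 had Xist at 8.05 beside 5.64 to 6.16 in the other male arrays, with a male Y-linked level; its cause was not tested. Thus sex and genotype cannot be told apart between heterozygous or knockout-labelled and wild type DEN mice. Only mouse 1 of the N750F group was male, so sex also largely followed genotype between N750F and heterozygous or knockout-labelled mice. Hepatocyte genes were bright in every group. Alb, the serum albumin gene, lay between 12.79 and 13.01, and the mean of 17 mature hepatocyte genes between 11.16 and 11.57. Quantile normalization holds the brightest values to shared numbers, so the narrow Alb range does not compare hepatocyte content between arrays.

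After DEN, the fetal markers Afp, Gpc3 and Cd24a were lower in wild type and heterozygous livers than in untreated ones, by log2 changes of -1.42 to -2.89, whereas N750F and knockout-labelled livers had levels between those and the untreated ones. Not all of these differences passed the test: of 60 tests (6 genes in 10 comparisons), 6 had an adjusted p under 0.05 in limma's moderated test, 54 did not, and 25 had an unadjusted p under 0.05. Log2 changes come from 1 model with a batch term, and so differ from differences of the group means. For Afp, with a fitted batch term of -1.01, even a sign changed. Its group means were 9.51 in N750F and 9.53 in knockout-labelled livers, but the model change between them was 0.39. In wild type DEN against untreated livers, 1 of the 6 genes fell (Cd24a), where 0.689% of all tested genes passed and 0.388% fell. In heterozygous DEN against untreated livers, 2 of 6 fell (Gpc3 and Cd24a), where 1.4% of all genes passed and 0.729% fell. In N750F DEN against untreated livers, 1 of 6 fell (Gpc3), against 6.21% of genes passing and 2.34% falling. Knockout-labelled DEN against untreated livers gave 0 of 6 in limma, with 1 at an unadjusted p under 0.05, where 0.0869% of genes passed.

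Among the treated genotypes, 1 of 6 genes rose in N750F against heterozygous livers (Afp; 1.64% of all genes passed and 1.3% rose), and 1 of 6 rose in knockout-labelled against heterozygous livers (Gpc3; 0.301% passed and 0.221% rose). Limma called 0 of 6 in N750F against wild type DEN, where 1.42% of genes passed (1.13% higher, 0.288% lower) and 3 of the 6 had an unadjusted p under 0.05. It called 0 of 6 in knockout-labelled against wild type DEN (0.0468% of genes passed, 2 of 6 unadjusted), 0 of 6 in heterozygous against wild type DEN (0.00669%, 1 of 6 unadjusted) and 0 of 6 in N750F against knockout-labelled livers (0% of genes, 1 of 6 unadjusted). Against untreated livers the median change of the 6 genes was -1.25 after DEN in wild type mice and -1.47 in heterozygous mice, where the median of all tested genes was -0.02 and -0.04. It was -0.41 in N750F and -0.37 in knockout-labelled livers against the same untreated arrays (all genes, -0.06 and -0.02). These 4 comparisons share their 2 untreated arrays.

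**Figure D1:**
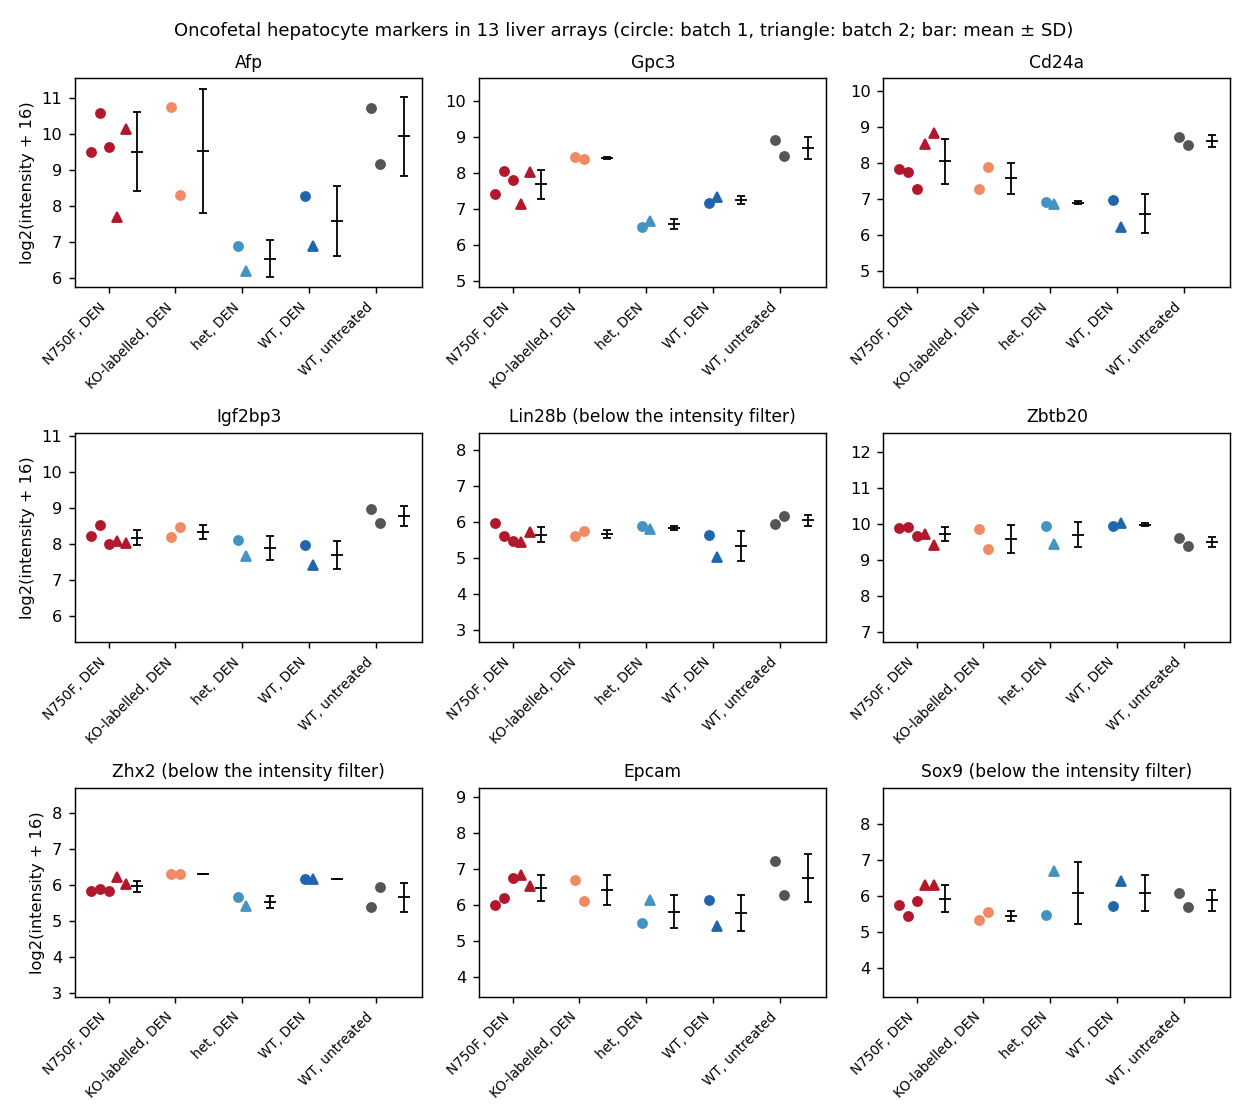
Level of each of the 9 genes in every array, as quantile-normalized log2(intensity + 16), with the 5 groups along the horizontal axis; each point is an array (circles batch 1, triangles batch 2) and each black bar the group mean ± SD. Cd24a lies lowest in the 4 heterozygous and wild type DEN arrays, and Zbtb20 stays between 9.30 and 10.02 in all 13 arrays. In N750F array 4 (batch 2), Gpc3 lies below both wild type DEN arrays and Afp only below that of batch 1.

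Afp (probe set 10523078, chromosome 5) and Gpc3 (10604576, chromosome X) had contrasting windows at their transcription starts, which are shown because these genes gave 4 of the 6 calls. The windows are from RefSeq (GRCm38.p6) and run from 250 bases before to 50 bases after the annotated start, 5′ to 3′ on the gene's strand, at chr5:90490464-90490763 (plus strand) for Afp and chrX:52613925-52614224 (minus strand) for Gpc3. A window was matched for 6 of the 9 genes: these and Igf2bp3, Lin28b, Zbtb20 and Epcam. Capitals mark matches to motifs searched on both strands: GTTAAT, which is only a part of the HNF1 site, the forkhead core TGTTTAC or TGTTTGC, and TATAAA.
Afp: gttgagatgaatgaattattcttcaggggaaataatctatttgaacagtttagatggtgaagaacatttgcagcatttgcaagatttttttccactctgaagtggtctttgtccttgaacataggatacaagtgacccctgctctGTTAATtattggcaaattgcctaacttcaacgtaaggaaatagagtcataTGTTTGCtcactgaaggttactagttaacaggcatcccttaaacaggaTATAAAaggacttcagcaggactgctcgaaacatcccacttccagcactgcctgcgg
Gpc3: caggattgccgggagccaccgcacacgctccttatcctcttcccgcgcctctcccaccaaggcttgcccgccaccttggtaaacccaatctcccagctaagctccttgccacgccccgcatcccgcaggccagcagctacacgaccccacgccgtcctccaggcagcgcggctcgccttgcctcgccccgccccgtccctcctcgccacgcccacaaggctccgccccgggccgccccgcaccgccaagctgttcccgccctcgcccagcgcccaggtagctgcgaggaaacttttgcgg
The Afp window held GTTAAT at -105 to -100, TGTTTGC at -55 to -49 and TATAAA at -7 to -2 from the annotated start. Of 32851 windows of this length, 7.1% held GTTAAT, 8.48% the forkhead core, 13.6% TATAAA and 0.167% all 3. The Gpc3 window and the other 4 held none of these letters. GC content was 40.0% with 3 CpG in the Afp window and 70.7% with 30 CpG in the Gpc3 window, beside a median of 52.7% over all windows.

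Afp had a level of 9.49, 10.57, 9.64, 7.68 and 10.14 in N750F arrays 1 to 5, 10.74 and 8.31 in knockout-labelled arrays, 6.89 and 6.18 in heterozygous arrays, 8.27 and 6.90 in wild type DEN arrays and 10.71 and 9.16 in untreated arrays. As quantile-normalized intensity these were 705, 1505, 784, 189.8 and 1113 in N750F, 1696 and 302 in knockout-labelled, 103 and 56.6 in heterozygous, 293 and 103 in wild type DEN and 1661 and 557 in untreated livers. All 5 N750F and both knockout-labelled arrays lay above both heterozygous arrays, whereas N750F array 4 (batch 2) lay below wild type DEN array 3 (batch 1). Within each batch, every N750F array lay above the wild type DEN array. Group means were 9.51 ± 1.10 in N750F (SD, n = 5), 9.53 ± 1.72 in knockout-labelled, 6.54 ± 0.50 in heterozygous, 7.58 ± 0.97 in wild type DEN and 9.94 ± 1.09 in untreated livers (n = 2 each). From high to low the order of these means was untreated, knockout-labelled, N750F, wild type DEN and heterozygous. With the batch term, N750F was 0.39 ± 0.69 above knockout-labelled livers (limma adjusted p = 0.858). No neighbours in the order differed by the limma test, the smallest adjusted p being 0.226 for N750F against wild type DEN.

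Afp was 7.30-fold higher in N750F than in heterozygous livers on the log2(intensity + 16) scale, a log2 change of 2.87 ± 0.66 (SE; 95% interval 1.45 to 4.29; limma adjusted p = 0.0438; higher in 5 of 5 arrays). The difference was 3.01 within batch 1 and 2.73 within batch 2. The call passed with N750F array 4, either knockout-labelled array or either untreated array left out, and was lost with any of the other 8 arrays left out (N750F 1, 2, 3 and 5, both heterozygous and both wild type DEN arrays; adjusted p 0.0608 to 0.403). When the level of Y-linked genes was added to the model, the change was 3.17 (adjusted p = 0.242). Against wild type DEN, Afp in N750F livers had a log2 change of 1.82 ± 0.66 (adjusted p = 0.226), or 1.63 within batch 1 and 2.01 within batch 2.

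Against untreated livers, Afp did not pass in any treated group. The log2 change was -2.89 ± 0.83 in heterozygous (adjusted p = 0.104) and -1.85 ± 0.83 in wild type DEN livers (adjusted p = 0.343), and both treated arrays lay below both untreated arrays in each. In N750F livers it was -0.03 (95% interval -1.51 to 1.46), an interval that spans a fall or a rise of more than a log2 unit. The knockout-labelled arrays stood apart from each other, at 10.74 and 8.31, and the second is the one with muscle transcripts. Knockout-labelled against heterozygous livers was 2.48 (adjusted p = 0.323), with 3.71 without array 2 (adjusted p = 0.0751) and 1.27 without array 1 (adjusted p = 0.560). Whether the muscle RNA had a part in the lower Afp of array 2 was not tested. In these bulk samples, fewer cells that express a gene and less RNA per cell cannot be told apart.

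Gpc3 had levels of 7.41, 8.07, 7.79, 7.14 and 8.02 in N750F arrays 1 to 5, 8.44 and 8.40 in knockout-labelled arrays, 6.49 and 6.68 in heterozygous arrays, 7.18 and 7.34 in wild type DEN arrays and 8.91 and 8.48 in untreated arrays. The heterozygous arrays were the lowest of all 13, and both knockout-labelled arrays lay above all N750F and wild type DEN arrays and below both untreated arrays. N750F array 4 (7.14) was under both wild type DEN values, so those groups overlapped. Group means were 7.69 ± 0.40 in N750F, 8.42 ± 0.03 in knockout-labelled, 6.58 ± 0.13 in heterozygous, 7.26 ± 0.12 in wild type DEN and 8.69 ± 0.30 in untreated livers (SD, n as above). Their order was that of Afp, and no neighbouring pair passed the test (smallest adjusted p = 0.340).

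The fall of Gpc3 in heterozygous DEN against untreated livers had the smallest adjusted p of the 60 tests: a log2 change of -2.10 ± 0.33 (adjusted p = 0.00815, lower in 2 of 2 arrays), with -2.20 in batch 1, which holds the untreated arrays. It passed with 11 of 13 arrays left out singly and was lost without heterozygous array 3 or untreated array 1 (adjusted p 0.0915 and 0.124). With replicate numbers as a block in place of the batch the adjusted p was 0.314. In N750F livers Gpc3 fell by 1.00 ± 0.28 on the log2 scale (adjusted p = 0.0478, all 5 arrays below both untreated arrays). That call passed without N750F array 4 or 5 or either knockout-labelled array, and was lost without any other single array (N750F 1, 2 and 3 and both heterozygous, wild type DEN and untreated arrays; adjusted p 0.0540 to 0.416). In wild type DEN the change was -1.42 ± 0.33 (adjusted p = 0.0692), and in knockout-labelled livers -0.28 (adjusted p = 0.852).

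Gpc3 was higher in knockout-labelled than in heterozygous livers by 1.82 ± 0.33 (adjusted p = 0.0419, 2 of 2 arrays), and by 1.92 within batch 1. The change was 1.80 without knockout-labelled array 1 (adjusted p = 0.0799) and 1.85 without array 2 (adjusted p = 0.0643). This call passed with N750F array 4 left out and was lost with each of the other 12 arrays left out (adjusted p 0.0580 to 0.219). N750F against heterozygous livers was 1.10 (adjusted p = 0.0551), or 1.27 within batch 1 and 0.90 within batch 2, with all 5 N750F arrays above both heterozygous arrays.

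Cd24a (probe set 10362896, chromosome 10), whose glycoprotein product marks immature epithelial and blood cells, had levels of 7.86, 7.76, 7.28, 8.53 and 8.84 in N750F arrays 1 to 5, 7.29 and 7.89 in knockout-labelled arrays, 6.94 and 6.89 in heterozygous arrays, 6.98 and 6.23 in wild type DEN arrays and 8.74 and 8.51 in untreated arrays. All 5 N750F and both knockout-labelled arrays lay above all 4 heterozygous and wild type DEN arrays. N750F arrays 4 and 5, those of batch 2, reached the untreated levels. Group means were 8.05 ± 0.63 in N750F, 7.59 ± 0.43 in knockout-labelled, 6.91 ± 0.03 in heterozygous, 6.61 ± 0.53 in wild type DEN and 8.63 ± 0.16 in untreated livers. From high to low the order was untreated, N750F, knockout-labelled, heterozygous and wild type DEN, and no neighbours in it passed (smallest adjusted p = 0.254).

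Against untreated livers Cd24a fell in wild type DEN livers (log2 change -2.21 ± 0.43, adjusted p = 0.0364) and in heterozygous livers (-1.91 ± 0.43, adjusted p = 0.0466), in 2 of 2 arrays each. Within batch 1 the differences were -1.64 and -1.69. The wild type call passed without N750F array 3 or 5, either knockout-labelled array or wild type DEN array 3, and was lost without any of the other 8 (adjusted p 0.0520 to 0.332). Its change was -3.13 without wild type DEN array 3 and -1.63 without array 4. The heterozygous call passed only with a knockout-labelled or wild type DEN array left out and was lost without any of the other 9 (adjusted p 0.0530 to 0.296). N750F against wild type DEN was 1.49 ± 0.34 (adjusted p = 0.0504), with 0.65 within batch 1 and 2.45 within batch 2; it was 2.27 without wild type DEN array 3 (adjusted p = 0.0118) and 0.78 without array 4 (adjusted p = 0.994).

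**Figure D2:**
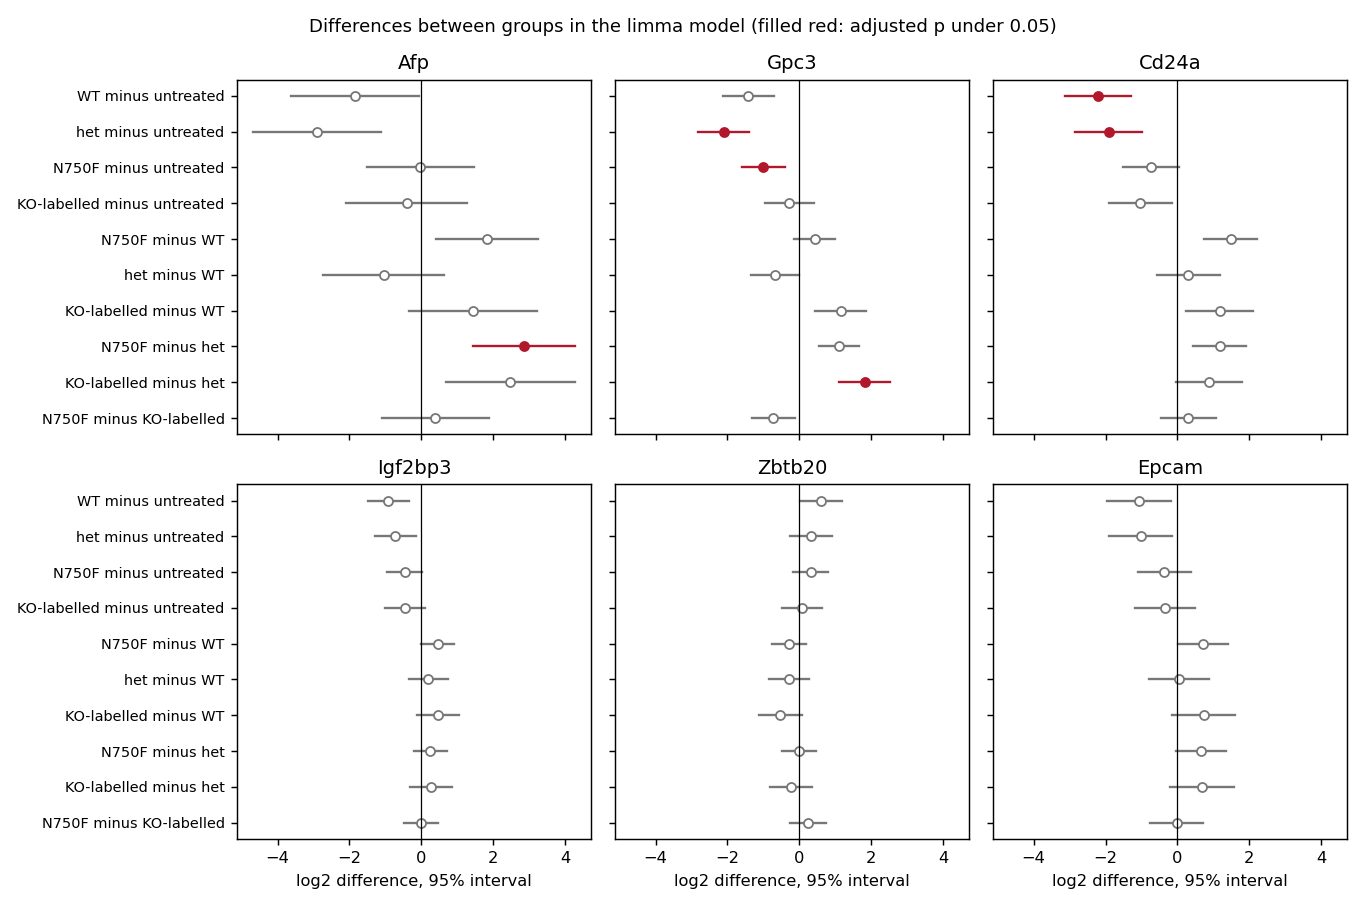
Log2 difference (horizontal axis) with its 95% interval for 6 genes in the 10 comparisons (vertical axis), from the limma model over 13 arrays; filled red points have an adjusted p under 0.05. The 6 filled points are in Afp, Gpc3 and Cd24a, and none is in Igf2bp3, Zbtb20 or Epcam.

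Epcam (probe set 10447383, chromosome 17), an adhesion protein of bile duct and immature epithelial cells, lay close to the filter. It had 6.00, 6.21, 6.77, 6.85 and 6.55 in N750F arrays 1 to 5, 6.71 and 6.13 in knockout-labelled arrays, 5.50 and 6.15 in heterozygous arrays, 6.13 and 5.43 in wild type DEN arrays and 7.22 and 6.29 in untreated arrays. Both wild type DEN and both heterozygous arrays lay below both untreated arrays. The log2 change against untreated livers was -1.07 ± 0.41 in wild type DEN (adjusted p = 0.261) and -1.03 ± 0.41 in heterozygous livers (adjusted p = 0.240), and N750F against wild type DEN was 0.71 ± 0.33 (adjusted p = 0.337). Sox9 (10382328, chromosome 11) was below the filter, between 5.43 and 6.30 in N750F, 5.33 and 5.54 in knockout-labelled, 5.47 and 6.69 in heterozygous, 5.70 and 6.41 in wild type DEN and 5.67 and 6.08 in untreated arrays. The groups overlapped, except that both knockout-labelled arrays lay below both wild type DEN and both untreated arrays.

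Igf2bp3 (probe set 10544610, chromosome 6), which binds and stabilises fetal mRNAs, had 8.23, 8.51, 8.00, 8.08 and 8.03 in N750F arrays 1 to 5, 8.18 and 8.45 in knockout-labelled arrays, 8.11 and 7.65 in heterozygous arrays, 7.96 and 7.40 in wild type DEN arrays and 8.96 and 8.57 in untreated arrays. Every treated array lay below both untreated arrays. The log2 change was -0.92 ± 0.27 in wild type DEN (adjusted p = 0.144) and -0.72 ± 0.27 in heterozygous livers (adjusted p = 0.209) against untreated ones. N750F against wild type DEN was 0.45 ± 0.21 (adjusted p = 0.348), all 5 N750F arrays lying above both wild type DEN arrays. Lin28b (10368981, chromosome 10), which blocks the maturation of let-7, was dim throughout, at 5.46 to 5.99 in N750F, 5.60 and 5.76 in knockout-labelled, 5.88 and 5.81 in heterozygous, 5.64 and 5.04 in wild type DEN and 5.94 and 6.17 in untreated arrays. All knockout-labelled, heterozygous and wild type DEN arrays lay below both untreated ones, and the N750F arrays overlapped them.

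Zbtb20 (probe set 10435789, chromosome 16), a zinc finger repressor of Afp in mouse liver, had 9.89, 9.93, 9.68, 9.74 and 9.42 in N750F arrays 1 to 5, 9.86 and 9.30 in knockout-labelled arrays, 9.95 and 9.46 in heterozygous arrays, 9.96 and 10.02 in wild type DEN arrays and 9.61 and 9.40 in untreated arrays. The wild type DEN arrays were the highest of the 13. The mean was highest in wild type DEN (9.99 ± 0.04) and lowest in untreated livers (9.51 ± 0.14), and no neighbours in the order passed (smallest adjusted p = 0.575). Wild type DEN against untreated livers was 0.60 ± 0.27 (adjusted p = 0.350) and knockout-labelled against wild type DEN -0.53 ± 0.27 (adjusted p = 0.636). Zhx2 (10424213, chromosome 15), a further repressor of Afp after birth, lay at the filter's edge, with a mean of 5.94 over all arrays: 5.84 to 6.22 in N750F, 6.32 and 6.31 in knockout-labelled, 5.66 and 5.42 in heterozygous, 6.17 and 6.17 in wild type DEN and 5.39 and 5.95 in untreated arrays. Both heterozygous arrays lay below all N750F, knockout-labelled and wild type DEN arrays, and those of the knockout-labelled and wild type DEN groups lay above both untreated ones. With no filter on dim genes, 0 of the 30 tests of Lin28b, Zhx2 and Sox9 passed in limma. Of these tests, 4 had an unadjusted p under 0.05, and the smallest adjusted p was 0.382. In the same fit 0 to 698 of all 19938 genes passed per comparison.

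The share of genes whose arrays do not overlap was large in groups this small, which bears on how the plots of single arrays read. In wild type DEN against untreated livers 5 of the 6 tested genes had both treated arrays below both untreated ones, as did 23.5% of all tested genes. In heterozygous livers it was 5 of 6 (26.6% of all genes), in N750F livers 2 of 6 (14.5%) and in knockout-labelled livers 3 of 6 (21.5%). Against wild type DEN, all arrays were higher for 2 of 6 genes in N750F livers (6.78%) and 4 of 6 in knockout-labelled livers (16.4%). Against heterozygous livers the counts were 3 of 6 in N750F (6.43%) and 4 of 6 in knockout-labelled livers (18.8%).

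Other genes of fetal liver and liver cancer, 19 of them tested, moved like the markers in part. In wild type DEN against untreated livers 4 fell and 0 rose, where 0.388% of all tested genes fell. In heterozygous livers 3 fell, where 0.729% of all genes did. The medians of the 19 genes were -0.37 and -0.55. In N750F and in knockout-labelled livers against untreated ones, limma called 0 of 19. Against wild type DEN, 5 of 19 rose in N750F livers (1.13% of all genes rose), and 5 rose against heterozygous livers (1.3%). In knockout-labelled livers 0 of 19 passed against either group. The shares of all genes given above for each comparison also stand beside the counts of the lists that follow. Igf2, the fetal growth factor whose mRNA Igf2bp3 binds, averaged 11.95 in N750F and 8.30 in wild type DEN livers, a change of 3.72 ± 0.41 (adjusted p = 0.00235). It was highest in untreated livers, at 12.60. Against these its limma change was -4.63 ± 0.52 in wild type DEN (adjusted p = 0.00428) and -4.61 ± 0.52 in heterozygous livers (adjusted p = 0.00151). In N750F livers the change of Igf2 against untreated ones was -0.91 ± 0.43 (adjusted p = 0.232). Knockout-labelled livers averaged 10.63. In N750F against wild type DEN livers, Peg3 and Mest, imprinted genes of fetal growth, had changes of 1.95 ± 0.33 (adjusted p = 0.0112) and 1.42 ± 0.26 (adjusted p = 0.0171). Fabp5, a fatty acid binding protein, had 2.55 ± 0.42 (adjusted p = 0.00970). The Mest arrays overlapped between these groups. In wild type DEN against untreated livers, Peg3 fell (-2.79 ± 0.41, limma adjusted p = 0.0109), as did Fabp5 (-2.65 ± 0.52, adjusted p = 0.0380). Untreated means were 9.85 for Peg3 and 8.85 for Fabp5, beside 8.90 and 8.94 in N750F livers. The 9 markers had a mean level of 7.33 to 7.67 in N750F, 7.34 and 7.61 in knockout-labelled, 6.77 in both heterozygous, 6.77 and 7.11 in wild type DEN and 7.58 and 7.95 in untreated arrays.

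Of 15 tested transcription factors known from the Afp locus, 2 fell in N750F against wild type DEN livers and 0 rose: Onecut1, or HNF6 (-2.01 ± 0.29, adjusted p = 0.00688), and Cebpb, or C/EBP beta (-1.14 ± 0.26, adjusted p = 0.0483). Against untreated livers, Foxa2, a forkhead factor of hepatocytes, fell by 1.69 ± 0.33 in wild type DEN (adjusted p = 0.0377) and by 1.10 ± 0.28 in N750F livers (adjusted p = 0.0352). Onecut1 and Nfia, a nuclear factor I gene, also fell in N750F livers (-1.21 ± 0.31 and -0.96 ± 0.24), where the Nfia arrays overlapped the untreated ones. Limma called 0 of 15 in N750F or knockout-labelled against heterozygous livers. Both tested neighbours in the albumin gene family passed in no comparison. In the LIN28 and let-7 pathway, 1 of 18 tested genes fell in heterozygous and 1 in N750F livers against untreated ones, in both cases Dis3l2, the exonuclease that degrades let-7 precursors marked through LIN28 (-1.44 ± 0.31, adjusted p = 0.0370, and -1.37 ± 0.26, adjusted p = 0.0144). Limma called 0 of 8 tested glypican and hedgehog genes in any comparison.

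Markers of bile duct cells, blood cells and macrophages were read beside Cd24a, Epcam and Sox9. Of 12 tested bile duct genes, 1 fell in wild type DEN against untreated livers, Krt23 (-1.97 ± 0.35, adjusted p = 0.0249), and 2 rose in N750F against wild type DEN livers, Prom1 (1.84 ± 0.36, adjusted p = 0.0226) and Krt23 (1.33 ± 0.28, adjusted p = 0.0331). Their mean over 15 genes was 6.71 to 7.13 in N750F, 6.89 and 7.06 in knockout-labelled, 6.85 and 7.06 in heterozygous, 6.70 and 6.96 in wild type DEN and 7.08 and 7.19 in untreated arrays, and 3 of the 15, Krt19 among them, were below the filter. Among blood cell lists, 1 of 6 tested neutrophil genes (S100a8) fell in wild type DEN, heterozygous and N750F livers against untreated ones, 1 of 6 erythroid genes (Slc4a1) fell in heterozygous livers, and 0 of 6 B cell genes passed in limma in any comparison. The mean of 13 neutrophil genes was 5.60 to 6.06 in N750F, 5.72 and 5.82 in knockout-labelled, 5.65 and 5.69 in heterozygous, 5.42 and 5.45 in wild type DEN and 5.97 and 6.16 in untreated arrays, with 7 of the 13 below the filter. Of 12 macrophage and Kupffer cell genes, 3 fell in wild type DEN and 1 in heterozygous against untreated livers, and 2 rose in N750F against wild type DEN livers. In N750F against untreated livers 1 fell and 1 rose, Timd4, a receptor of resident macrophages (1.24 ± 0.24, adjusted p = 0.0150), whose arrays overlapped between these groups. The macrophage mean was 7.62 to 8.13 in N750F and 7.57 and 8.04 in knockout-labelled arrays. It was 7.20 and 7.43 in heterozygous, 7.00 in both wild type DEN and 7.94 and 8.37 in untreated arrays. Group means of the macrophage, bile duct and neutrophil lists ran in the same order as those of Cd24a. Those of the erythroid, B cell, endothelial and stellate cell lists did not. The bile duct means differed little, from 6.83 in wild type DEN to 7.13 in untreated livers. The part of these cells in the Cd24a and Epcam levels was not tested.

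Genes of mitosis had their lowest mean in the 4 heterozygous and wild type DEN arrays, which were also the 4 lowest for Cd24a but not for Afp or Gpc3, where N750F array 4 was among the 4 lowest. The mean of 14 mitotic genes was 8.09 to 8.47 in N750F, 8.64 and 7.00 in knockout-labelled, 5.64 and 5.65 in heterozygous, 6.11 and 6.01 in wild type DEN and 7.63 and 7.33 in untreated arrays. All 14 rose in N750F against wild type DEN and 13 rose against heterozygous livers, while in wild type DEN and heterozygous livers 4 and 5 fell against untreated ones. N750F livers had higher mitotic means than untreated livers in all 5 arrays, and a lower Gpc3 level in all 5. N750F array 4, of batch 2, had the second highest mitotic mean, 8.47, and an Afp level of 7.68. The fitted batch term of Afp was -1.01 for batch 2 against batch 1 (limma adjusted p = 0.210). The knockout-labelled arrays differed from each other in mitotic mean and in Afp, with the higher Afp (10.74) in the array with the higher mitotic mean. The part of cell division in the marker levels was not tested.

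**Figure D3:**
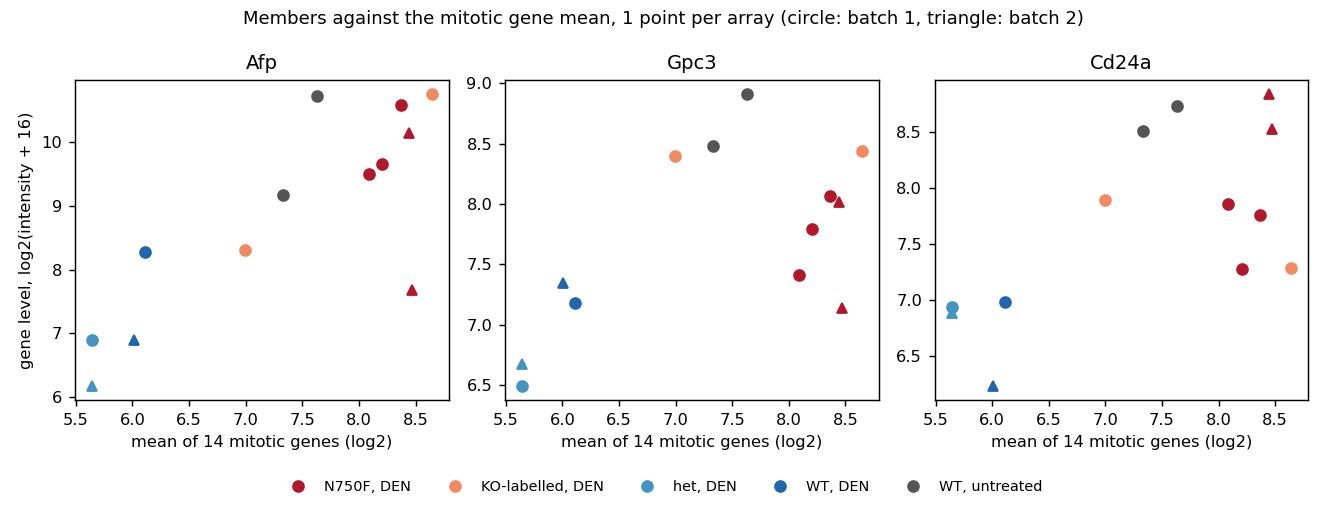
Level of Afp, Gpc3 and Cd24a (vertical axes, log2(intensity + 16)) against the mean of 14 mitotic genes (horizontal axes, same scale), with 1 point per array and the group in colour. The 4 heterozygous and wild type DEN arrays have the lowest mitotic means, 5.64 to 6.11. N750F array 4 (batch 2) sits at a mitotic mean of 8.47 with Afp at 7.68.

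Over the 13 arrays, with the batch difference removed, the genes whose levels were most like those of Afp were Foxm1, a transcription factor of the G2/M phase (Pearson r = 0.949), Rsu1 (0.948) and Uhrf1, which maintains DNA methylation at replication (0.932). For Gpc3 they were Cpt1a, which imports fatty acids into mitochondria (0.937), Rnf7 (0.936) and Nfya, a CCAAT-binding subunit (0.930). For Cd24a they were the imprinted gene Peg3 (0.947), the adhesion gene Cadm1 (0.942) and Sned1 (0.940). These are the 3 highest values of 14953 genes for each marker, over arrays that share their groups, and are given as a description.

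**Figure D4:**
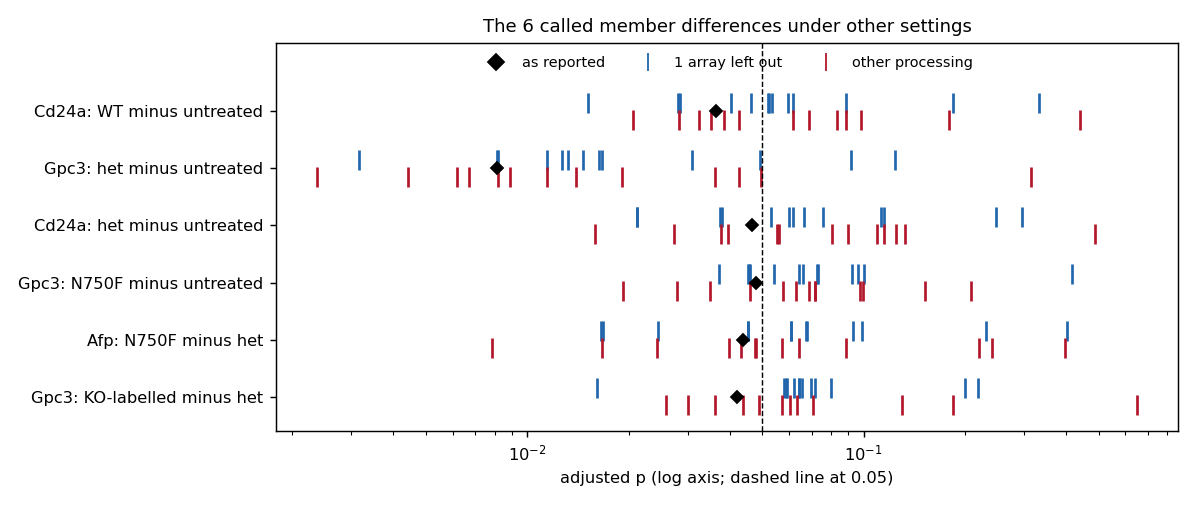
Adjusted p (horizontal log axis) of the 6 called differences as reported (diamonds), with 1 array left out (blue marks) and under other processing (red marks), with a dashed line at 0.05. Gpc3 in heterozygous against untreated livers stays left of the line in 11 of 13 cases with an array left out, and the other 5 differences cross it in 8 to 12 of 13.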

How the data were processed

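The table the authors deposited gives linear intensities of 35556 probe sets for each of 13 arrays (0.000427 to 17831, array medians 48.2 to 82.99). RMA and Affymetrix Expression Console 1.1 are named in the submitters' processing notes; a genome build for the probes was not given in the sources used here. The deposited intensities were quantile-normalized (limma 3.58.1, R 4.3.3) and put on the log2(intensity + 16) scale, on which changes of dim genes are understated. The platform annotation gave 21789 probe sets 1 symbol and 1621 several, and 12146 were not listed; symbols were updated through Entrez IDs for 21698. Probe sets with several symbols were left out, and the probe set with the highest mean stood for a gene. Testing was limited to genes whose mean reached the 25th percentile.

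Groups and replicate numbers came from the labels. A limma model (lmFit, eBayes) held the 5 groups and the array batch over all 13 arrays, with 7 residual degrees of freedom, and 2187 genes passed for the batch term. P-values were adjusted by Benjamini-Hochberg over the 14953 genes of each comparison, and all tests are two-sided. Levels are mean ± SD and changes log2 ± SE. The model was tested on simulated data. The members and gene lists were chosen with earlier results of these data known. Named genes outside the 9 were, for each list, up to 4 called genes with the smallest p, and the 3 genes most like each called member; Krt19 and Rb1 were named in addition. The alternatives were other normalizations, offsets, filters and batch models, the sex-linked level, array weights, the replicate number as a block, the other Zbtb20 probe set and leaving out each array. Leaving out both knockout-labelled arrays was added after seeing the data. Replicate numbers gave a correlation of deviations from group means over 0.1 in 7 of 12 same-numbered pairs (-0.13 to 0.45). These are not 12 separate values, because deviations mirror each other in groups of 2 arrays. Thus heterozygous with wild type DEN gave 0.45 for both number 3 and number 4. The deviations also kept the batch difference. Numbers 3 and 4 coincide with the batches in the wild type and heterozygous DEN groups, so replicate numbers were not taken as pairs.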

Additional observations from a re-analysis of the deposited data

How the results depend on the processing

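The 6 called differences kept their direction under all alternatives run, but 5 of them passed in at most 12 of 25 or 26. The number of the 6 tested genes called moved as follows. In wild type DEN against untreated livers it was 0 with no normalization, with median scaling, with an offset of 1, with no batch term, in batch 1 alone and with the Y-linked covariate, 2 with an offset of 50, and 0 to 1 with an array left out. In heterozygous against untreated livers it was 1 in those 6 settings, with no filter and with batch as a random block, and 0 to 3 with an array left out. In N750F against untreated livers it was 0 in the same 8 settings and 0 to 1 with an array left out. In N750F against wild type DEN it was 1 with median scaling, an offset of 50, a filter at the median or both knockout-labelled arrays left out, and 0 to 1 with an array left out. In N750F against heterozygous livers it was 0 with no normalization, an offset of 1, no batch term, batch 1 alone or the Y-linked covariate, 2 with a filter at the median, batch as a random block or array weights, and 0 to 2 with an array left out. In knockout-labelled against heterozygous livers it was 0 with no normalization, median scaling, an offset of 1, batch 1 alone, the Y-linked covariate or array weights, and 0 to 1 with an array left out. With the replicate block in place of the batch term, 0 were called in all 5 of the comparisons that had a call; the numbers are not a pairing by design. Differences near 0 changed sign. Afp in N750F against untreated livers was 0.14 with no normalization, 0.16 with median scaling, 0.095 with the replicate block, 0.040 with the Y-linked covariate, 0.23 with array weights and -0.80 to 0.75 with an array left out. Afp in N750F against knockout-labelled livers was -0.019 with no batch term and -0.83 to 1.60 with an array left out, and in knockout-labelled against untreated livers -1.63 to 0.81. Cd24a in heterozygous against wild type DEN was -0.046 in batch 1 alone and -0.43 to 1.05 with an array left out. The cause of these changes was not tested.

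Over all genes the counts called were 103 in wild type DEN against untreated livers (0 to 226 over the alternatives), 210 in heterozygous (9 to 564), 928 in N750F (13 to 2730) and 13 in knockout-labelled livers (0 to 48). They were 212 in N750F (0 to 495), 1 in heterozygous (0 to 131) and 7 in knockout-labelled against wild type DEN (0 to 91), 245 in N750F (2 to 349) and 45 in knockout-labelled against heterozygous (0 to 134), and 0 in N750F against knockout-labelled livers (0 to 511). Signal near background limits Lin28b, Zhx2, Sox9 and Epcam.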

Other observations

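Ugt2b1, a glucuronosyltransferase of mature hepatocytes, differed in direction from Afp, Gpc3 and Cd24a in wild type DEN and heterozygous against untreated livers. Against untreated livers it rose in N750F (0.99 ± 0.24, limma adjusted p = 0.0317), heterozygous (1.95 ± 0.29, adjusted p = 0.00590) and wild type DEN livers (1.51 ± 0.29, adjusted p = 0.0364). Its N750F arrays overlapped the untreated ones. Ugt2b1 was lower in knockout-labelled than in heterozygous livers (-1.89 ± 0.29, adjusted p = 0.0184). No other of 17 tested hepatocyte genes rose against untreated livers, and 1, Tfr2, fell in N750F livers. The median change of the 17 against untreated livers was -0.04 in wild type DEN, 0.01 in heterozygous, 0.03 in N750F and -0.09 in knockout-labelled livers. Of 10 endothelial genes, Cdh5 fell in heterozygous against untreated livers (-1.59 ± 0.33, adjusted p = 0.0340) and Stab1 rose in N750F against heterozygous livers (0.93 ± 0.20, adjusted p = 0.0309). Oit3 rose in N750F against untreated livers (0.76 ± 0.21, adjusted p = 0.0474). Of 10 stellate cell genes, Col3a1 rose in N750F against wild type DEN livers (1.31 ± 0.28, adjusted p = 0.0365) and Reln fell in heterozygous against untreated livers (-1.71 ± 0.35, adjusted p = 0.0342).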
